A study of Mus musculus with 17 samples.

Results

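The 10 genes described here, Bcat1, Bcat2, Bckdha, Bckdhb, Dbt, Bckdk, Ivd, Mccc1, Mccc2 and Hibadh, code for enzymes of branched-chain amino acid catabolism and for the kinase that restrains it. They were taken by gene name from the 48795 identifiers of the count table. mRNA of kidney cortices was sequenced in 17 libraries in 4 groups, each labelled with a mouse number in its group. The study's methods describe fewer mice than libraries for WT and GCERAΔ, so some of these libraries may share a mouse, and p-values then measure the spread between libraries only. WT (n = 5) was wild type. GCERAΔ (n = 5, genotype label ATF4 KO) carried Ggt/CreER TG/TG and ATF4 fl/fl, and received 200 µL of tamoxifen at 20 mg/mL, 1 injection per day on 2 consecutive days at 6 weeks of age. By the study's methods, mice were fasted for 16 h in metabolic cages 1 month after the first injection, and tissue was then taken. These methods do not name the TRACK groups. The promoter of Ggt1 drives CreER in proximal tubules, so the other cells of a cortex keep the gene. TRACK (n = 3) was the transgenic model of cancer of the kidney, and GCERAΔT (n = 4, genotype label TRACK-ATF4 KO) combined TRACK with the ATF4 knockout. The age and tamoxifen treatment of both TRACK groups, and any tamoxifen given to WT, were not given in the sources used here. ATF4 is a transcription factor of the amino acid response, and the design asks how its loss in proximal tubules changed the cortex transcriptome, with and without the TRACK transgene.

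Leucine, isoleucine and valine are broken down by a shared pair of first steps. An aminotransferase (BCAT1 in the cytosol, BCAT2 in mitochondria) converts each amino acid to its keto acid, and the branched-chain keto acid dehydrogenase (BCKDH) complex in mitochondria then oxidizes the keto acid irreversibly. BCKDHA and BCKDHB form the E1 component of the complex, DBT is its E2 core, and BCKDK phosphorylates E1 and switches it off. After this step the routes part: IVD and the 2 subunits of methylcrotonyl-CoA carboxylase, MCCC1 and MCCC2, act on leucine, whereas HIBADH acts on valine. BCAT2 is the aminotransferase of most adult tissues, and BCAT1 is otherwise known from brain and from tumors.

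The start regions of Bcat1 and Mccc2 are shown because Bcat1 had the largest rise of the set and Mccc2 fell in 3 of the 4 comparisons described below, as Bckdhb did. Each window runs from 250 bases before to 50 bases after a RefSeq start (build GRCm38.p6), is printed 5′ to 3′ on the gene's own strand, and has the hypoxia response cores ACGTG and GCGTG, read on either strand, in capitals. RefSeq gives Bcat1, which lies at chr6:144993835-145076184 on the minus strand, a distal and an internal start, at chr6:145076108-145076407 and chr6:145048763-145049062. The Mccc2 window is chr13:100015590-100015889, also on the minus strand.
Bcat1 distal start: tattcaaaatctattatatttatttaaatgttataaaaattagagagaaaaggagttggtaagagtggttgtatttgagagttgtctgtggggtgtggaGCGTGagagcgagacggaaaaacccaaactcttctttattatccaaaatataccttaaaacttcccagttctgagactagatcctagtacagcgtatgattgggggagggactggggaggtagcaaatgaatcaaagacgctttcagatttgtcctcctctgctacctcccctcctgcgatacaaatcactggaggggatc
Bcat1 internal start: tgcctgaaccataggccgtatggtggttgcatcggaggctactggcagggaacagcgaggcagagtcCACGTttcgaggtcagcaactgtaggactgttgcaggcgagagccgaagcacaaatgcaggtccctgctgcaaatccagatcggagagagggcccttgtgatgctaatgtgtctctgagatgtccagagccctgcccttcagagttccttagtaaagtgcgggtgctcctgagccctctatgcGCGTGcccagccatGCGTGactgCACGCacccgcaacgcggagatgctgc
Mccc2 start: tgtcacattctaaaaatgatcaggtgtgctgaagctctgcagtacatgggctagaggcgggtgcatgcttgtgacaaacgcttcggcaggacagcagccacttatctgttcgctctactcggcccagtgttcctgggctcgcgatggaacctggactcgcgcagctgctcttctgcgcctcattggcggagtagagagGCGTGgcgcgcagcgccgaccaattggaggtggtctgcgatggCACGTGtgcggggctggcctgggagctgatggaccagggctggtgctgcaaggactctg

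RefSeq windows were matched for 9 of the 10 genes, 12 windows in all; Dbt was not matched. The composite of ATF4 and C/EBP, TGATGNAA, was found in 0 of the 12 windows and in 3.97% of all 32851 windows of the table, and the ATF core TGACGTCA in 0 of the 12 and in 1.79% of all. ACGTG was found in 4 of the 12 windows and in 19.6% of all, and GCGTG in 6 of the 12 and in 32.4% of all. The E-box CACGTG, which contains ACGTG, stood in 1 of the 12, that of Mccc2, and in 7.15% of all. The GC content was 41% at the distal and 58.7% at the internal start of Bcat1 and 60.3% at that of Mccc2, and the median over all windows was 52.7%. A match is a description of the letters and not a site of binding.

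Several features of the libraries bear on every comparison below. Total counts ran from 53688512 to 71364561 per library. The 5 WT libraries held Xist, the RNA of the inactive X chromosome, at 147 to 422 CPM (counts scaled by library size) and the Y-linked Ddx3y at 0 CPM, whereas the 12 other libraries held Xist at 0 to 6.06 CPM and Ddx3y at 49.7 to 79.9 CPM. This is the transcript pattern of female mice in WT and of male mice in the 12 others, although the labels give no sex. Knockout or transgene and this difference in X- and Y-linked transcripts, and so in sex, cannot be told apart in any comparison with WT. For that reason GCERAΔT was also compared with GCERAΔ, a comparison added after this pattern was seen. The summed level of 8 proximal tubule markers was 7402 to 9044 CPM in WT, 7760 to 11166 CPM in GCERAΔ, 4768 to 5441 CPM in TRACK and 5212 to 6149 CPM in GCERAΔT. The summed level of 4 markers of injured tubules was 8.25 to 11.9 CPM in WT, 11.3 to 19.6 CPM in GCERAΔ, 35.3 to 71.8 CPM in TRACK and 42.2 to 51 CPM in GCERAΔT. Single markers did not all follow their sum. The proximal tubule marker Ggt1 was at 479 to 710 CPM in WT and at 849, 815 and 559 CPM in TRACK. Slc5a2, another, was at 281 to 368 CPM in WT and at 340, 294 and 215 CPM in TRACK. The injury marker Lcn2 was at 1.65 to 3.71 CPM in WT, 0.643 to 1.39 CPM in GCERAΔ and 1.70 to 3.56 CPM in GCERAΔT. Markers of other cell types moved as well. Thick ascending limb markers summed to 5074 to 7753 CPM in WT and 3348 to 4571 CPM in GCERAΔ, principal cell markers to 724 to 890 CPM and 260 to 489 CPM, and intercalated cell markers to 217 to 248 CPM and 161 to 191 CPM. Endothelial markers summed to 197 to 230 CPM in WT, 345 to 394 CPM in TRACK and 303 to 327 CPM in GCERAΔT. The part of these shifts in the results was not tested, and fewer proximal tubule cells and less RNA per cell cannot be told apart in a cortex. GCERAΔ samples 4 and 5 stood apart from GCERAΔ samples 1 to 3, and the values without one set or the other are given where a call depended on it. In an alternative fit, WT 1 with 2 and GCERAΔ 2 with 3 were each summed into 1 sample as possible repeats. These were not the closest pairs of their groups. Their squared deviation per gene, relative to sampling noise, was 55.3 and 65.8. It was 25.5 for WT 4 with 5 and 34.7 for GCERAΔ 1 with 2, which were not summed. Those closer pairs lay within 1 library kind, a split described below, whereas each summed pair joined both kinds. WT 2 was closest to WT 1, at 75 to 89 with the other WT samples. GCERAΔ 3 was closest to GCERAΔ 2, at 73.8 or more with the others. Whether these pairs are repeats was not tested. With the 2 sums, 2760 genes in place of 3198 differed between GCERAΔ and WT. The 10 genes then gave the same number of calls in each comparison that involves the summed libraries.

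The targeted gene, Atf4, was measured at 73.0, 55.8, 57.4, 61.8 and 75.1 CPM in GCERAΔ against 79.6, 74.8, 81.5, 86.9 and 101 CPM in WT. It was lower in GCERAΔ, with a log2 fold change of -0.38 ± 0.11 (SE; adjusted p = 0.0218, edgeR), although the groups did not separate fully. This call was lost without WT sample 5 (adjusted p = 0.0559), without GCERAΔ sample 3 (adjusted p = 0.0527) and without GCERAΔ samples 1 to 3 (adjusted p = 0.0959). In the libraries labelled TRACK-ATF4 KO Atf4 stood at 80.6, 94.2, 94.8 and 104 CPM, against 93.4, 79.9 and 77.6 CPM in TRACK, and was not lower (log2 fold change 0.17, adjusted p = 0.367). The counts of this gene therefore do not bear out the label GCERAΔT, and each direction below that involves these 4 libraries is one of libraries so labelled. For GCERAΔ the study reports the deletion by PCR and by staining of the protein. The counts cover every exon of Atf4, and the exons that the fl alleles flank were not given in the sources used here. Other cells of the cortex keep the gene, so these counts cannot decide whether it was deleted in proximal tubules.

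On a scale per length (FPKM, counts scaled by exon length and library size), Bckdha had the highest mean level of the 10 genes in every group, at 160 ± 8 FPKM (SD) in WT, and Ivd followed in WT at 63.0 ± 3.2 FPKM. Hibadh (51.9 ± 3.7 FPKM) and Mccc2 (48.7 ± 3.8 FPKM) were neighbours in WT whose ranges overlapped. Dbt stood at 34.6 ± 2.2 FPKM. Bckdk, Bcat2 and Bckdhb, at 22.3 ± 1.7, 22.04 ± 1.1 and 19.4 ± 2.2 FPKM, did not differ beyond their spread. Mccc1 stood at 15.2 ± 0.9 FPKM, and Bcat1 was lowest at 1.00 ± 0.45 FPKM. In TRACK and GCERAΔ Bcat1 was still the lowest of the 10 by its mean, and in the libraries labelled TRACK-ATF4 KO it stood at 12.3 ± 0.5 FPKM, above Bckdhb at 11.4 ± 1.0 FPKM.

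**Figure D1:**
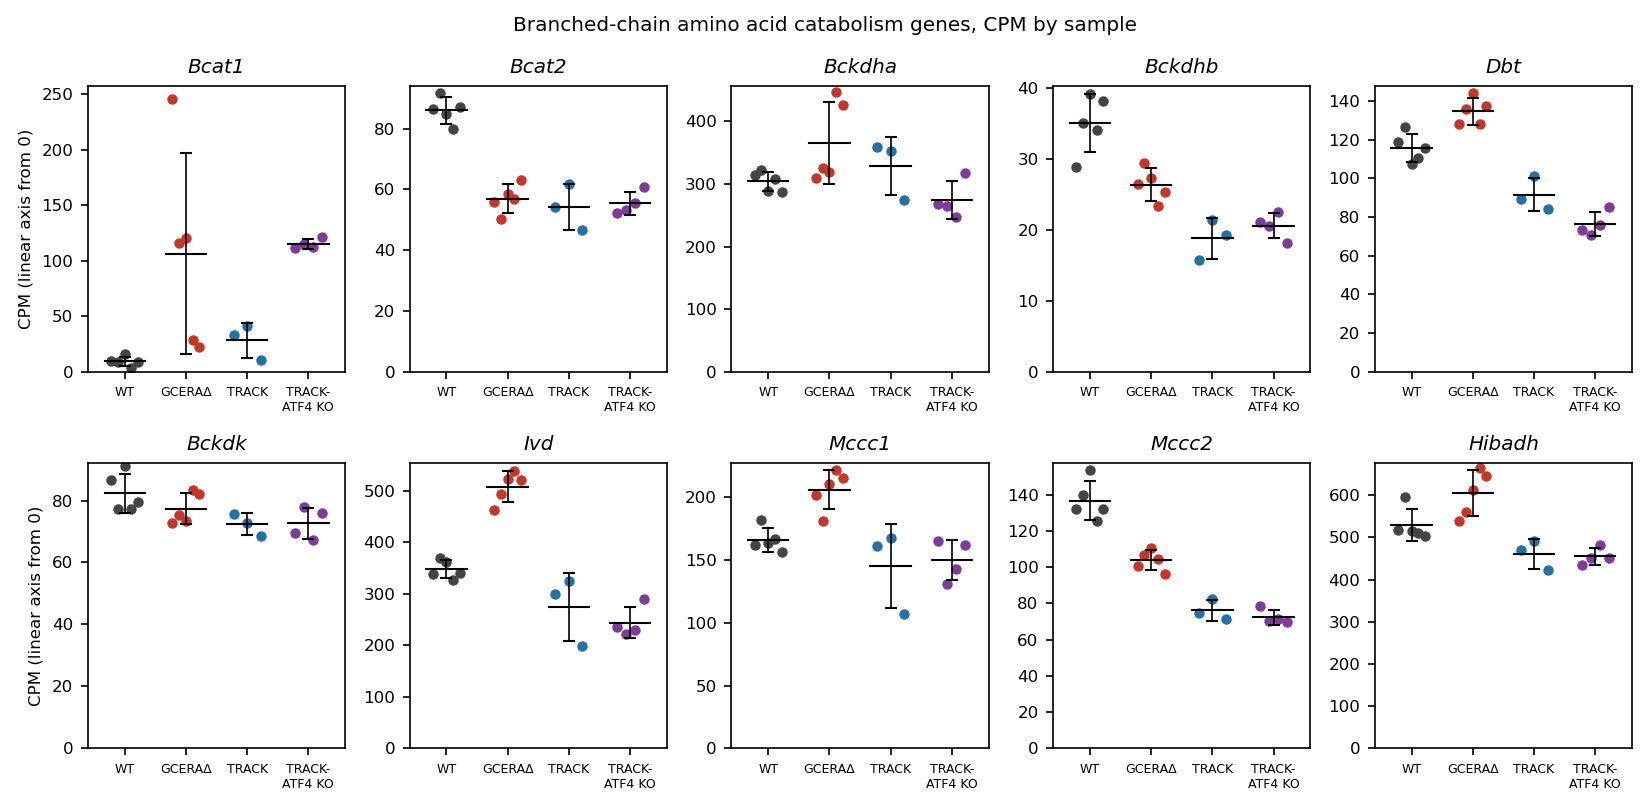
Level of each of the 10 genes in CPM (linear axis from 0) in every sample of WT, GCERAΔ, TRACK and TRACK-ATF4 KO (GCERAΔT); points are samples in replicate order, horizontal lines are means and bars are SD. Bcat1 was at 3.86 to 15.6 CPM in WT and at 112 to 122 CPM in the 4 libraries labelled TRACK-ATF4 KO, and Bcat2 was higher in each WT sample than in any other.

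All 10 genes passed the FPKM minimum of 1, which asks for the mean of either group, in every comparison. Bcat1, at a mean of 0.999 FPKM in WT, passed against WT through the other group alone. GCERAΔ differed from WT in 7 of them, 4 higher (Bcat1, Dbt, Ivd and Mccc1) and 3 lower (Bcat2, Bckdhb and Mccc2), where 27.6% of the 11581 genes tested had an adjusted p of 0.05 or less, 14.1% higher and 13.5% lower. The libraries labelled TRACK-ATF4 KO differed from TRACK in 1 of the 10, Bcat1, where 7.09% of 11928 genes were called and 2.81% were called higher. TRACK differed from WT in 5, Bcat1 higher and Bcat2, Bckdhb, Dbt and Mccc2 lower, where 45.6% of 11967 genes were called, 23% higher and 22.6% lower, so this count lies near the background. The same labelled libraries differed from GCERAΔ in 6, each lower (Bckdhb, Dbt, Ivd, Mccc1, Mccc2 and Hibadh), where 19.2% of 11816 genes were called and 9.79% were called lower. With the replicate number as a block, which leaves out GCERAΔ sample 5, this last comparison called 7 of the 10, Bckdha in addition, and 3731 genes in place of 2266. The median log2 fold change of the 10 genes was 0.22 for GCERAΔ against WT, 0.00 for GCERAΔT against TRACK, -0.27 for TRACK against WT and -0.43 for GCERAΔT against GCERAΔ. Over all genes tested the medians were -0.00, 0.01, -0.01 and -0.00. WT served in both of its comparisons, and GCERAΔ and GCERAΔT in 2 each, so these counts are not independent of each other.

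**Figure D2:**
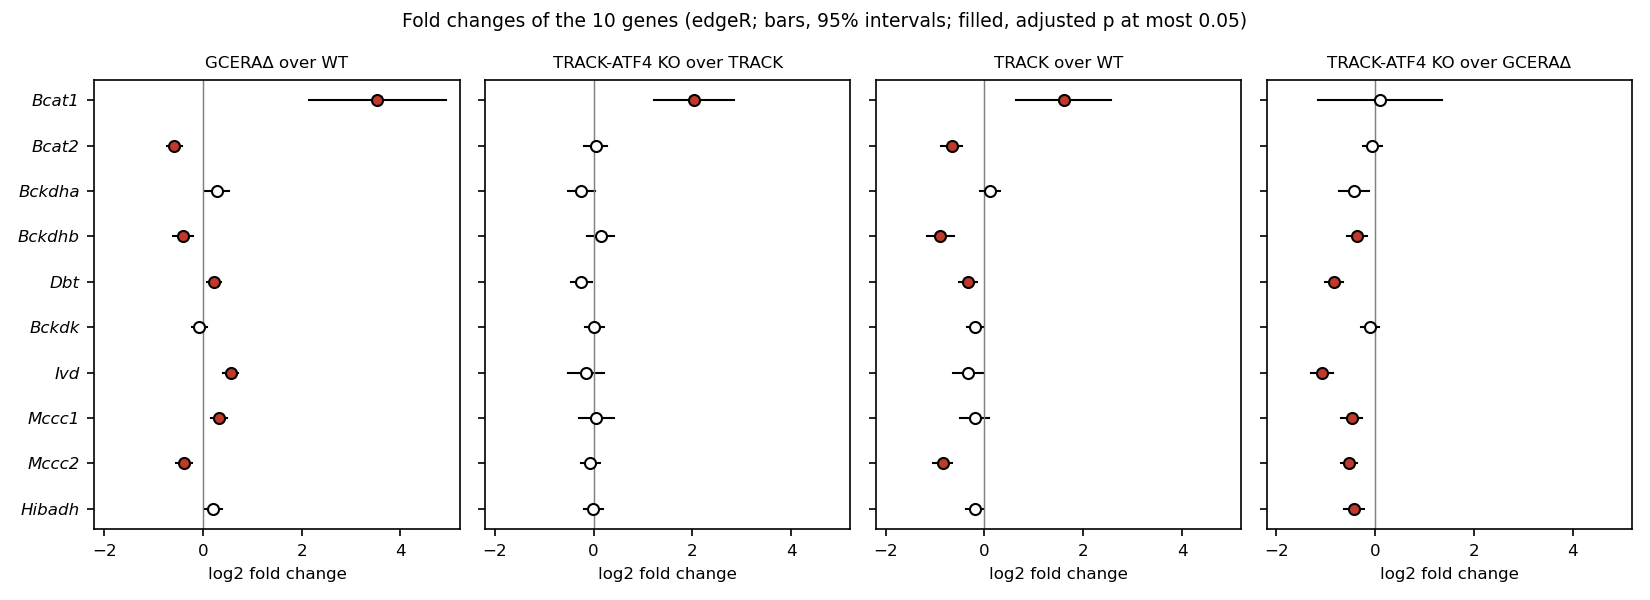
log2 fold change of the 10 genes in 4 comparisons; points are edgeR estimates, bars are 95% intervals and filled points have an adjusted p of at most 0.05. Bcat1 lies at 3.53, 2.04 and 1.60 in the first 3 comparisons and at 0.10 in the last, where 6 of the other genes are filled and lie below 0.

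Bcat1, the cytosolic aminotransferase, had the widest range of the set. It was at 9.49, 8.84, 15.6, 3.86 and 8.76 CPM in WT and at 245, 116, 120.5, 28.8 and 22.4 CPM in GCERAΔ. TRACK held 32.9, 41.3 and 10.7 CPM, and the libraries labelled TRACK-ATF4 KO held 112, 115, 112.5 and 122 CPM. Each GCERAΔ value lay above each WT value, the 4 values of GCERAΔT lay within 1.09-fold of each other and above the TRACK values, and TRACK sample 3 lay within the WT range. Bcat1 was 11.6-fold higher in GCERAΔ than in WT (log2 fold change 3.53 ± 0.63 SE, adjusted p = 0.00177). It was 4.10-fold higher in the libraries labelled TRACK-ATF4 KO than in TRACK (2.04 ± 0.36, adjusted p = 0.0109), although in 1 fit over all 17 samples the adjusted p was 0.0783. TRACK was 3.04-fold above WT (1.60 ± 0.43, adjusted p = 0.0127). This call was lost without TRACK sample 2 (adjusted p = 0.0689) and with the replicate number as a block (1.20, adjusted p = 0.13). It was also lost with library kind, a split of the libraries by their share of counts on processed pseudogenes, as a covariate (adjusted p = 0.170). The kind with the larger share held 1 of 5 WT, 3 of 5 GCERAΔ, 3 of 3 TRACK and 2 of 4 GCERAΔT libraries. In TRACK against WT, fits with this covariate therefore rest on 1 WT library. GCERAΔT against GCERAΔ gave a log2 fold change of 0.10 with a 95% interval from -1.16 to 1.36.

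The spread of Bcat1 in GCERAΔ followed the split of that group. GCERAΔ samples 1 to 3 held 116 to 245 CPM and samples 4 and 5 held 22.4 to 28.8 CPM, so both sets lay above WT. Without samples 1 to 3 the log2 fold change against WT was 1.47 (adjusted p = 0.0108), and without samples 4 and 5 it was 4.12 (adjusted p = 2.33e-05). The fold of the group is therefore a mean over 2 levels. The direction against GCERAΔT depended on which samples were kept: the log2 fold change was -0.48 (adjusted p = 0.153) without samples 4 and 5 and 2.16 (adjusted p = 1.07e-05) without samples 1 to 3. Adipocyte markers summed to 28.3 and 26.9 CPM in GCERAΔ samples 2 and 3 and to 0.217 CPM in sample 1, the sample with the highest Bcat1. Other marker sums followed the split. In samples 1 to 3 against 4 and 5, proximal tubule markers summed to 10060 to 11170 against 7760 to 7971 CPM. Principal cell markers summed to 454 to 489 against 260 to 272 CPM, and thick ascending limb markers to 3348 to 3988 against 4241 to 4571 CPM. Single markers such as Aqp1 and Hnf4a did not follow it. Their part in Bcat1 was not tested. Bcat1 shares 337 exon bases with the antisense gene Gm26666, which held 0 to 38 counts per library against 208 to 15830 for Bcat1.

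Bcat2, the mitochondrial aminotransferase, was at 86.4, 91.8, 85.0, 79.7 and 87.1 CPM in WT and at 55.8, 50.4, 58.7, 57.0 and 63.2 CPM in GCERAΔ. TRACK held 54.1, 62.0 and 46.7 CPM, and the libraries labelled TRACK-ATF4 KO held 52.2, 53.1, 55.5 and 60.7 CPM. The 12 samples outside WT shared 1 range, below every WT sample. Bcat2 fell in GCERAΔ by 0.58 on the log2 scale (SE 0.07, adjusted p = 0.000157) and in TRACK by 0.66 (SE 0.10, adjusted p = 0.00043). Its change in GCERAΔT was 0.04 against TRACK (95% interval -0.20 to 0.28) and -0.06 against GCERAΔ (95% interval -0.24 to 0.13). Bcat2 shares 622 exon bases, 15.95% of its exons, with the antisense gene 0610005C13Rik, which held 4161 to 11176 counts per library. Whether the counting used strand was not given in the sources used here, so reads of the shared stretch cannot be assigned with certainty.

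Set side by side per length, Bcat1 took a larger share of the aminotransferase transcripts outside WT. It made up 4.39%, 3.88%, 7.14%, 1.99% and 4.04% of the summed FPKM of Bcat1 and Bcat2 in WT. The share in GCERAΔ was 64.8%, 49.0%, 46.2%, 17.5% and 12.9%, in TRACK 20.3%, 21.8% and 8.78%, and in the libraries labelled TRACK-ATF4 KO 47.2%, 47.5%, 45.9% and 45.6%. Only GCERAΔ sample 1 of the 17 samples had more Bcat1 than Bcat2. The sum of both genes was 20.9 to 24.5 FPKM in WT, 17.7 to 40.6 FPKM in GCERAΔ, 13.1 to 20.3 FPKM in TRACK and 25.4 to 28.6 FPKM in GCERAΔT.

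**Figure D3:**
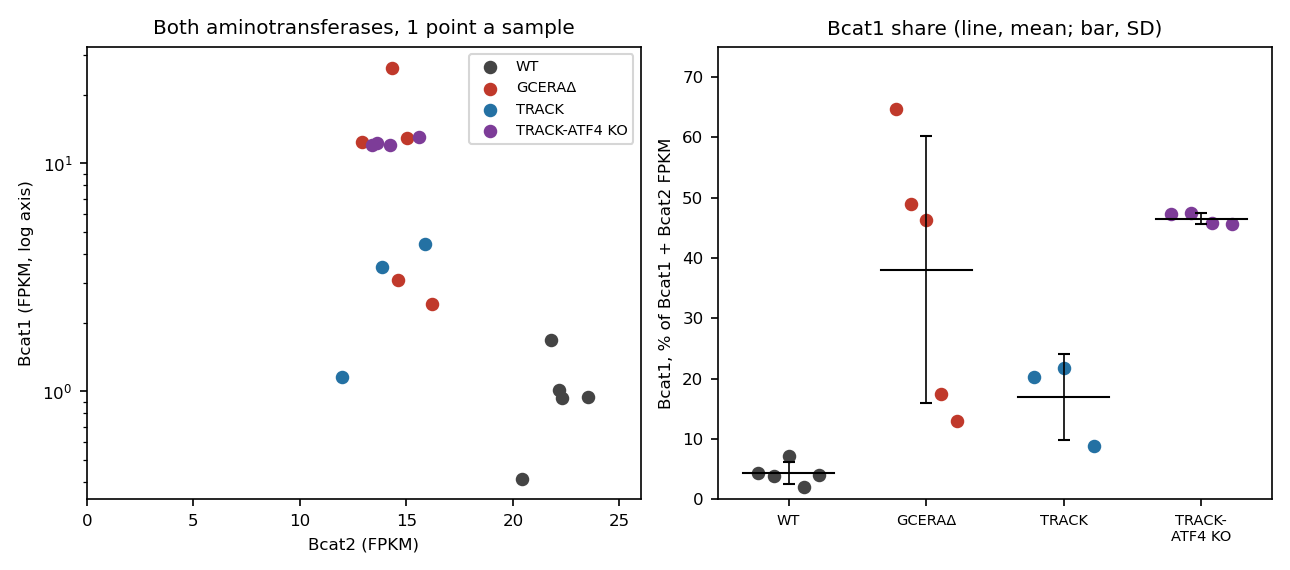
Left, Bcat1 (FPKM, log axis) against Bcat2 (FPKM, linear axis from 0), 1 point a sample; right, Bcat1 as a percentage of Bcat1 plus Bcat2, with the mean as a line and the SD as a bar. WT samples sit at 1.99% to 7.14%, GCERAΔ samples at 12.9% to 64.8% and the libraries labelled TRACK-ATF4 KO at 45.6% to 47.5%.

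The subunits of the BCKDH complex did not move together. Bckdhb, the E1 beta subunit, was at 28.9, 35.1, 39.1, 34.0 and 38.2 CPM in WT and at 26.5, 29.4, 27.3, 23.3 and 25.3 CPM in GCERAΔ. TRACK held 15.7, 21.5 and 19.3 CPM, and the libraries labelled TRACK-ATF4 KO held 21.1, 20.6, 22.5 and 18.2 CPM. WT sample 1 and GCERAΔ sample 2 overlapped, and both TRACK groups lay below every sample of the others. Bckdhb fell by 0.40 in GCERAΔ (SE 0.09, adjusted p = 0.00784) and by 0.90 in TRACK (SE 0.12, adjusted p = 0.000348), both on the log2 scale against WT. It was also lower in GCERAΔT than in GCERAΔ, the fitted value being -0.37 (adjusted p = 0.0185), a call lost without GCERAΔ samples 1 to 3 (adjusted p = 0.179), without GCERAΔT sample 2 (adjusted p = 0.0521) and with total counts as the only scaling (adjusted p = 0.0785). Against TRACK, GCERAΔT gave 0.14 (adjusted p = 0.523).

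Dbt, the E2 core, was at 119, 127, 107, 111 and 116 CPM in WT and at 128, 136, 144, 128 and 137 CPM in GCERAΔ. TRACK held 89.5, 101 and 84.3 CPM, and the libraries labelled TRACK-ATF4 KO held 73.5, 70.8, 76.2 and 85.3 CPM. GCERAΔ thus lay above WT, and TRACK below it, without overlap. The rise in GCERAΔ was 1.17-fold (log2 fold change 0.23 ± 0.07 SE, adjusted p = 0.0231), and it missed the threshold without WT sample 3, 4 or 5 or GCERAΔ sample 3 (adjusted p = 0.0521 to 0.0569). It also missed it without GCERAΔ samples 1 to 3 (0.092), with total counts as the only scaling (0.0778), without the FPKM minimum (0.0906) and with the replicate number as a block (0.0948), each an adjusted p. Dbt fell by 0.34 on the log2 scale in TRACK (adjusted p = 0.00877), and GCERAΔT against TRACK gave -0.25 (unadjusted p = 0.0268, adjusted p = 0.143). Its largest difference was between GCERAΔT and GCERAΔ, where the log2 fold change was -0.83 ± 0.08 (adjusted p = 8.72e-05).

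Bckdha, the E1 alpha subunit, was at 313.5, 323, 288, 308 and 287 CPM in WT and at 309, 325, 319, 446 and 426 CPM in GCERAΔ. TRACK held 359, 352 and 275 CPM, and the libraries labelled TRACK-ATF4 KO held 269, 265, 247 and 318 CPM. GCERAΔ samples 4 and 5 were the highest of the 17, and samples 1 to 3 of that group lay within or just above the WT range. Bckdha did not pass the test against WT (log2 fold change 0.28, adjusted p = 0.0868), but did so with samples 4 and 5 as the group (0.53, adjusted p = 0.000736) and without GCERAΔ sample 1 (adjusted p = 0.0481). In GCERAΔT it was at -0.43 against GCERAΔ (adjusted p = 0.0519). It passed there with the replicate number as a block (-0.34, adjusted p = 0.0123), with DESeq2 (0.0156), in 1 fit over 17 samples (0.0181), with library kind (0.0356), and without GCERAΔ sample 1 (0.0395), GCERAΔT sample 4 (0.0434) or GCERAΔ samples 1 to 3 (0.00398). The log2 fold change was -0.25 for GCERAΔT against TRACK (adjusted p = 0.227) and 0.11 for TRACK against WT (adjusted p = 0.344). The latter passed without TRACK sample 3 (0.23, adjusted p = 0.0327). Bckdha shares 1171 exon bases, 61.66% of its exons, with B3gnt8 on the opposite strand, which held 119 to 315 counts per library against 14809 to 24770 for Bckdha. The ratio of Bckdha to Bckdhb, on the FPKM scale, was 7.01 to 10.3 in WT, 10.5 to 18.2 in GCERAΔ, 13.6 to 21.7 in TRACK and 10.4 to 16.6 in GCERAΔT.

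Bckdk, the kinase that inactivates the complex, passed in none of the 4 comparisons by edgeR on all samples of the pair, at an adjusted p of at most 0.05. Its mean level was 82.3 ± 6.2 CPM (SD) in WT, 77.4 ± 5.0 CPM in GCERAΔ, 72.4 ± 3.5 CPM in TRACK and 72.7 ± 5.0 CPM in GCERAΔT. TRACK lay below WT without overlap, at a log2 fold change of -0.18 with a 95% interval from -0.36 to -0.01 (unadjusted p = 0.0424, adjusted p = 0.0823). This passed without WT sample 2 (-0.21, adjusted p = 0.0449). The intervals of the other 3 comparisons ran from -0.23 to 0.08 for GCERAΔ against WT, from -0.17 to 0.20 for GCERAΔT against TRACK and from -0.28 to 0.07 for GCERAΔT against GCERAΔ.

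In the leucine branch, Ivd, the isovaleryl-CoA dehydrogenase, was at 337, 369, 361, 327 and 341 CPM in WT and at 462, 492, 523, 538 and 521 CPM in GCERAΔ. TRACK held 299, 324 and 199 CPM, and the libraries labelled TRACK-ATF4 KO held 235, 222, 230.2 and 289 CPM. Every GCERAΔ sample lay above every sample of the other groups. Ivd rose 1.47-fold in GCERAΔ (log2 fold change 0.56 ± 0.07 SE, adjusted p = 0.000151). It was 2.10-fold lower in GCERAΔT than in GCERAΔ (log2 fold change -1.07 ± 0.10, adjusted p = 5.76e-05), the largest fall of the set. TRACK lay below WT without overlap but missed the threshold (log2 fold change -0.34, adjusted p = 0.0638). Ivd passed there with DESeq2 (adjusted p = 0.0314), in 1 fit over 17 samples (0.0397), without the FPKM minimum (0.0496) and without TRACK sample 2 (0.028). GCERAΔT against TRACK gave -0.16 (adjusted p = 0.58).

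Mccc1 and Mccc2, the alpha and beta subunits of 1 carboxylase, changed in opposite directions in GCERAΔ. Mccc1 was at 162, 182, 164, 167 and 156 CPM in WT and at 202, 181, 210.1, 222 and 215 CPM in GCERAΔ, with GCERAΔ sample 2 inside the WT range. Mccc2 was at 132, 139.9, 153, 126 and 132 CPM in WT and at 100.5, 107, 110.5, 105 and 96.2 CPM in GCERAΔ, without overlap. The log2 fold change was 0.32 ± 0.07 (adjusted p = 0.00645) for Mccc1 and -0.38 ± 0.07 (adjusted p = 0.00199) for Mccc2. In TRACK, Mccc2 stood at 74.9, 82.6 and 71.2 CPM, and it fell against WT (log2 fold change -0.84 ± 0.09, adjusted p = 5.61e-05). Mccc1 was at 161, 168 and 107 CPM there and did not pass (adjusted p = 0.259). In the libraries labelled TRACK-ATF4 KO, Mccc1 was at 165, 131, 142.5 and 162 CPM and Mccc2 at 78.3, 70.0, 71.2 and 69.8 CPM. Both were lower than in GCERAΔ, with log2 fold changes of -0.47 (adjusted p = 0.00728) and -0.54 (adjusted p = 0.000904). Against TRACK they gave 0.06 (adjusted p = 0.849) and -0.07 (adjusted p = 0.659). The exons of Mccc1 share 94 to 321 bases with each of 3 genes on the other strand, at most 2.93% of its exon length.

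In the valine branch, Hibadh, the 3-hydroxyisobutyrate dehydrogenase, had a mean of 529 ± 38 CPM (SD) in WT, 605 ± 54 CPM in GCERAΔ, 461 ± 35 CPM in TRACK and 455 ± 19 CPM in GCERAΔT. The GCERAΔ samples held 539.8, 560.1, 613.5, 665 and 646 CPM, and WT sample 2, at 596 CPM, lay among them. The difference from WT was 0.21 on the log2 scale and missed the threshold (adjusted p = 0.0869), and it passed without WT sample 2 (adjusted p = 0.0411), without GCERAΔ samples 1 to 3 (0.32, adjusted p = 0.0156) and with DESeq2 (adjusted p = 0.0441). TRACK lay below WT without overlap at -0.20 (adjusted p = 0.07), which passed with library kind (-0.37, adjusted p = 0.0273), and GCERAΔT against TRACK gave -0.01 (adjusted p = 0.952). GCERAΔT, at 434 to 481 CPM, lay below every GCERAΔ sample, with a log2 difference of -0.43 ± 0.09 (adjusted p = 0.00945). With total counts as the only scaling the median of all genes in this last comparison moved by 0.11 on the log2 scale, and the share of calls that were higher went from 48.9% to 74.3%. Dbt, Ivd, Mccc1, Mccc2 and Hibadh kept their calls under that scaling, and Bckdhb did not.

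**Figure D4:**
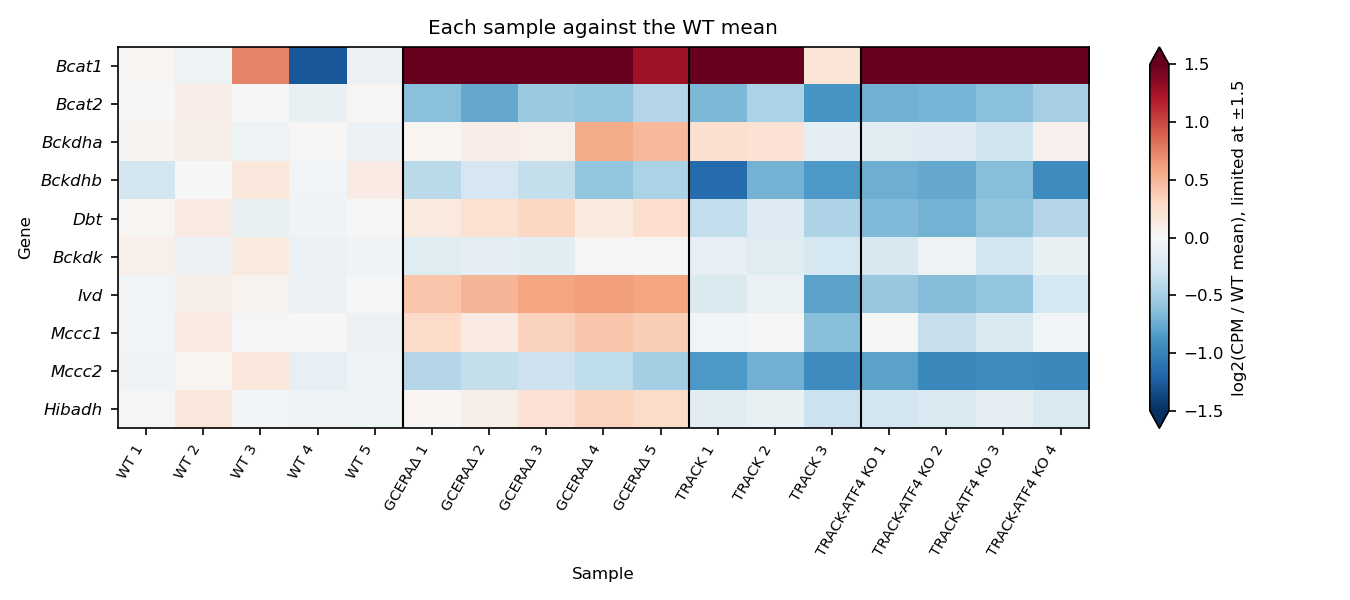
log2 ratio of the CPM of each gene in each of the 17 samples to its WT mean; colour is limited at ±1.5, and black lines divide WT, GCERAΔ, TRACK and TRACK-ATF4 KO (GCERAΔT). Ivd was above the WT mean in the 5 GCERAΔ samples and below it in the 7 samples of both TRACK groups, whereas Bcat2 and Mccc2 were below it in all 12.

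Groups that do not overlap gave a second view that needs no model. GCERAΔ and WT did not overlap for 5 of the 10 genes (Bcat1, Bcat2, Dbt, Ivd and Mccc2), against 20.2% of all genes tested, and GCERAΔT and GCERAΔ for 6, against 19.4%. TRACK and WT did not overlap for 7, against 44.3%. GCERAΔT and TRACK did not overlap for 1, Bcat1, against 23.1%.

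The change with the ATF4 knockout label differed between the background without and with TRACK for 6 of the 10 genes, where 25.1% of 12208 genes passed this test of the difference (edgeR, all 17 samples), 12.3% above and 12.8% below 0. The difference is the change of GCERAΔT over TRACK minus that of GCERAΔ over WT, on the log2 scale. It was above 0 for Bcat2 (0.62 ± 0.12 SE, adjusted p = 0.00181), Bckdhb (0.54 ± 0.15, adjusted p = 0.0175) and Mccc2 (0.32 ± 0.11, adjusted p = 0.035), the 3 genes that fell in GCERAΔ. The change in GCERAΔ enters the difference with a minus sign, so this match is built in and is no separate result. The difference, as defined above, was not above 0 for every gene. The difference was below 0 for Ivd (-0.71 ± 0.17, adjusted p = 0.00587), Dbt (-0.48 ± 0.11, adjusted p = 0.00476) and Bckdha (-0.52 ± 0.17, adjusted p = 0.0367). For Bcat1 it was -1.49 with a 95% interval from -3.21 to 0.23 (adjusted p = 0.191), and it was -2.09 (adjusted p = 0.0136) without GCERAΔ samples 4 and 5 and 0.57 (adjusted p = 0.463) without samples 1 to 3. With library kind as a covariate, 3 of the 6 remained past the threshold (Bcat2, Dbt and Ivd). Leaving out TRACK sample 1 also left 3. The call of Bckdha was lost in 10 and that of Mccc2 in 5 of the 17 fits that leave out 1 sample, and both were lost without GCERAΔ samples 4 and 5 (adjusted p = 0.0885 and 0.0864). Bckdha was also lost with total counts (0.0582), and Mccc2 with filterByExpr (0.064) and without the FPKM minimum (0.165). Hibadh passed without GCERAΔ samples 1 to 3 (-0.33, adjusted p = 0.0338), and Mccc1 without TRACK sample 3 (-0.45, adjusted p = 0.0176). This difference rests on WT and on the labelled libraries, so it carries both limits given above. With total counts as the only scaling, the share of calls above 0 over all genes went from 49% to 61.4%.

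The other 26 genes of the pathway were taken from general knowledge of it, and 25 were tested, since the carrier Slc43a1 stayed below the FPKM minimum. In GCERAΔ against WT 12 of them passed, 7 higher and 5 lower, where 27.6% of all genes tested passed, 14.1% higher and 13.5% lower. Higher were 4 of the 6 genes listed under the valine branch and 3 of the 7 listed under the isoleucine branch. Lower were 3 of the 5 carriers tested, 1 of the 2 leucine genes and 1 of the 4 genes of the complex and its regulation. Acat1, the acetyl-CoA acetyltransferase that ends isoleucine breakdown, rose the most, from 420 to 503 CPM in WT to 892 to 1031 CPM in GCERAΔ (log2 fold change 1.10, adjusted p = 2.1e-06). Agxt2, an aminotransferase that acts on 3-aminoisobutyrate and is placed in the valine branch by this list only, went from 51.9 to 63.3 CPM in WT to 99.0 to 118 CPM (0.86, adjusted p = 1.54e-05). Aldh6a1 (0.42, adjusted p = 0.0243), Pcca (0.40, adjusted p = 0.00197) and Mmut (0.34, adjusted p = 0.00903), which act between the branches and the citric acid cycle, were also higher. Aldh6a1 was at 1079 to 1258 CPM in GCERAΔ samples 1 to 3 and at 1570 to 1601 CPM in samples 4 and 5. Its call was lost without samples 4 and 5 (0.22, adjusted p = 0.0593), with library kind (0.0538), with the block (0.0812) and in 4 of the 10 fits that leave out 1 sample. Among the plasma membrane carriers, Slc7a5, a light chain of the large neutral amino acid exchanger, was lower (-1.09, adjusted p = 0.0011) at 1.41 to 2.24 CPM against 3.42 to 4.45 CPM. Slc7a5 passed the FPKM minimum through WT alone, at a mean of 1.07 FPKM against 0.50 FPKM in GCERAΔ. Its partner chain Slc3a2 (-0.55, adjusted p = 0.00103) and the light chain Slc7a8 (-0.65, adjusted p = 0.00366) were lower too. The coactivator Ppargc1a (-0.32, adjusted p = 0.0204) and the leucine enzyme Auh (-0.16, adjusted p = 0.0412) completed the lower genes. The call of Auh was lost in 9 of the 10 fits that leave out 1 sample, without GCERAΔ samples 1 to 3 (adjusted p = 0.217), with filterByExpr (0.0806), without the FPKM minimum (0.162), with the block (0.168) and with the possible repeats summed (0.0988). That of Ppargc1a was lost without WT sample 5 (0.0557), without GCERAΔ samples 4 and 5 (0.0712) and with the block (0.0905). With total counts as the only scaling, the share of calls that were higher over all genes went from 51.2% to 37.9% in this comparison.

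**Figure D5:**
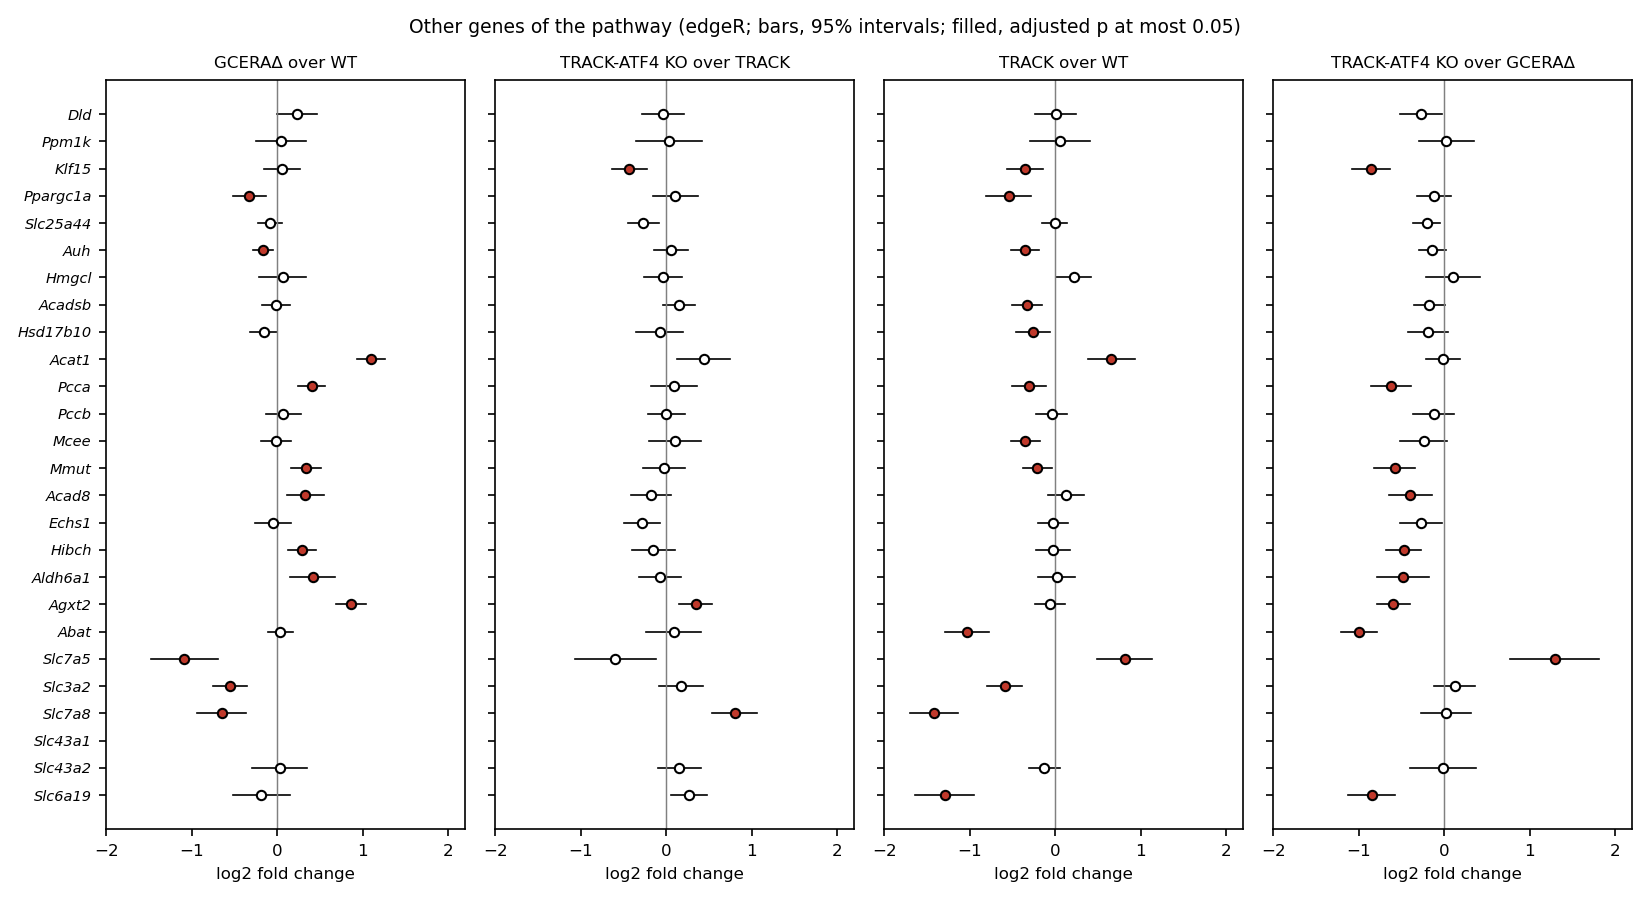
log2 fold change of the 25 other pathway genes tested in 4 comparisons; points are edgeR estimates, bars are 95% intervals and filled points have an adjusted p of at most 0.05. Acat1 lies at 1.10 in GCERAΔ over WT, and Slc7a8 at -0.65, 0.80 and -1.42 in the first 3 comparisons.

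In the libraries labelled TRACK-ATF4 KO against TRACK, 3 of the 25 passed, where 7.09% of all genes tested did, so this count is small and near the background. Slc7a8 was at 237, 233, 177 and 191 CPM against 116, 122 and 125 CPM and was higher (log2 fold change 0.80, adjusted p = 0.00466), the reverse of its fall in GCERAΔ, and the difference between these changes was 1.46 (adjusted p = 6.28e-05). Agxt2 was also higher (0.35, adjusted p = 0.0406), and Klf15, a transcription factor known to induce genes of this pathway, was lower (-0.43, adjusted p = 0.0229). The calls of Agxt2 and Klf15 were lost in 6 and 4 of the 7 fits that leave out 1 sample.

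In TRACK against WT 14 of the 25 passed, 12 of them lower, where 45.6% of all genes tested passed and 22.6% were lower. Slc7a8 (-1.42, adjusted p = 2.41e-05), the apical neutral amino acid carrier Slc6a19 (-1.29, adjusted p = 0.000154) and the 4-aminobutyrate aminotransferase Abat (-1.03, adjusted p = 9.49e-05) fell the most, and Slc3a2 (-0.59) and Ppargc1a (-0.54) followed. Slc7a5 (0.81, adjusted p = 0.00139) and Acat1 (0.66, adjusted p = 0.00187) rose. With library kind as a covariate the calls of Acat1 (0.50, adjusted p = 0.0979) and Ppargc1a (-0.39, adjusted p = 0.134) were lost. In GCERAΔT against GCERAΔ 10 of the 25 passed, 9 of them lower, where 19.2% of all genes tested passed and 9.79% were lower. Of these 9, 5 were among the 6 genes listed under the valine branch, Agxt2 included. Abat (-0.995, adjusted p = 7.29e-05), Klf15 (-0.85, adjusted p = 0.000391), Slc6a19 (-0.85, adjusted p = 0.00128), Pcca (-0.62, adjusted p = 0.00287) and Agxt2 (-0.59, adjusted p = 0.00117) were the 5 lowest, and Slc7a5 was the 1 gene higher (1.29, adjusted p = 0.00418). Slc7a5 passed the FPKM minimum there through GCERAΔT alone, at a mean of 1.24 FPKM against 0.50 FPKM in GCERAΔ. The summed proximal tubule markers, though not every one of them, were lower in both TRACK groups, as given above, and were not used to adjust these values.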

How the data were processed

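mRNA of kidney cortices in 17 libraries (TruSeq Stranded mRNA) was processed by the authors with bcl2fastq 2.20, Cutadapt, STAR and HTSeq on GRCm38. The deposited table holds raw counts per gene. The study's methods give paired reads of 51 bases, but its lane summary holds more bases per cluster for some libraries than for others. Read length may therefore differ between libraries, and its part in library kind was not tested. The strand setting was not given in the sources used here. Here edgeR 4.0.16 (R 4.3.3; quasi-likelihood test, TMM scaling) was run on each pair of groups, for genes whose mean FPKM reached 1 in either group, with lengths from the merged exons of GENCODE M21 (48435 of 48795 identifiers matched). The threshold was 0.05 after Benjamini-Hochberg adjustment across every gene tested. The difference between the knockout contrasts was fitted over all 17 samples. CPM and FPKM share 1 TMM scale. On simulated counts for GCERAΔ against WT, 96% of 2-fold, 57.1% of 1.5-fold and 8% of 1.25-fold changes were called. For GCERAΔT against TRACK, 82% of 2-fold, 33.3% of 1.5-fold and 6% of 1.25-fold changes were called. For the difference between the knockout contrasts, 62% of 2-fold and 22.7% of 1.5-fold changes were called. In each of these comparisons the simulation changed fewer genes than were called in the data. The Benjamini-Hochberg cutoff depends on the share of genes changed, so these rates are not call rates for the data. A gene without a call may still have changed by such a fold. DESeq2 1.42.0, other scalings, filters, blocks and left-out samples were alternatives. No pair of libraries agreed within sampling noise.

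Every gene of the set was named in each comparison; of the other pathway genes, those called with the 5 largest rises and 5 largest falls were named. The genes, lists and tests were chosen with earlier results of these data known. Labels give each library a mouse number. Same-numbered samples correlated in their deviations from group means at -0.60 to 0.08 for GCERAΔ and WT, -0.03 to 0.01 for GCERAΔT and TRACK, -0.09 to 0.05 for TRACK and WT, and 0.39 to 0.56 for GCERAΔT and GCERAΔ, where every pair exceeded 0.1. In that last comparison each same-numbered pair was also of the same library kind. A shared number and a shared kind cannot be told apart there, also in the fit with the block. For GCERAΔ and WT only the samples numbered 1 shared a kind, at 0.08. The printed values come from fits without the block, and blocked values are given where they changed a call or a count.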

Additional observations from a re-analysis of the deposited data

Results flagged for a closer look

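Of 75 groups of values examined for a sample far from the rest, 2 held one, and chance alone flags about 1 in 20. Hibadh in WT sample 2 stood at 595.6 CPM, against 517.5 CPM for the next sample. Mccc2 in GCERAΔT sample 1 stood at 78.3 CPM, against 71.2 CPM for the next.

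The change with the knockout label differed between the backgrounds without and with TRACK for 6 of the 10 genes and 8 of the 25 other pathway genes tested, 14 of 35 in all, where 25.1% of all genes tested passed. As the change of GCERAΔT over TRACK minus that of GCERAΔ over WT, on the log2 scale, it was 0.62 for Bcat2, 0.54 for Bckdhb and 0.32 for Mccc2, and -0.71 for Ivd, -0.52 for Bckdha and -0.48 for Dbt. Among the other pathway genes it was 1.46 for Slc7a8, 0.73 for Slc3a2 and 0.44 for Ppargc1a. It was -0.66 for Acat1, -0.51 for Agxt2, -0.50 for Acad8, -0.48 for Klf15 and -0.43 for Hibch. The call of Ppargc1a was lost in 12 of the 17 fits that leave out 1 sample, without GCERAΔ samples 4 and 5 (adjusted p = 0.11), without the FPKM minimum (0.0998), with filterByExpr (0.0596), with the block (0.0748) and with library kind (0.179). Library kind also cost Acad8 (0.0905) and Hibch (0.10) their calls, leaving out GCERAΔ samples 4 and 5 cost Acad8 its call (0.0583), and leaving out samples 1 to 3 cost Klf15 its call (0.0741). WT differed from the other groups in X- and Y-linked transcripts, and Atf4 was not lower in the libraries labelled TRACK-ATF4 KO; the part of either in these differences was not tested.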

How the results depend on the processing

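Leaving replicate omissions aside, the 10 genes gave 490 values under other settings, of which 444 kept direction and side of the threshold, 18 lost a call, 15 gained one and 13 changed sign, none of them a called change. The causes of the changes below were not tested. With the replicate number as a block, fits that kept only shared numbers (all samples for the difference), GCERAΔ against WT called 2106 genes and 6 pathway genes, GCERAΔT against TRACK 1 pathway gene, TRACK against WT 3382 genes and GCERAΔT against GCERAΔ 3731 genes. The block also cost Dbt (adjusted p = 0.0948) and Mccc1 (0.0501) their calls in GCERAΔ, and the samples there share only a number. DESeq2 called 1567 genes and 7 pathway genes in GCERAΔT against TRACK, and 1 fit over 17 samples called 0 of the 10 genes and 5 pathway genes. The library kind as a covariate gave 462 genes in GCERAΔT against TRACK, 2776 in TRACK against WT and 3 of the 10 genes for the difference. Without GCERAΔ samples 1 to 3, 13 pathway genes passed for the difference.

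Sign changes on the log2 scale were 0.018 for Bckdk (GCERAΔ against WT, without GCERAΔ samples 1 to 3), and in GCERAΔT against TRACK 0.012 for Hibadh with total counts, 0.026 for Hibadh with library kind, and for Bckdk 0.00 without the FPKM minimum, -0.0006 with filterByExpr, -0.0085 with the block and -0.0041 with library kind. Atf4 in TRACK against WT gave 0.086 with the block and 0.16 with library kind. In GCERAΔT against GCERAΔ, total counts gave 0.053 for Bcat2 and 0.0052 for Bckdk, and leaving out GCERAΔ samples 4 and 5 gave -0.48 for Bcat1 and 0.015 for Bcat2. For the difference, leaving out GCERAΔ samples 1 to 3 gave 0.57 for Bcat1 and -0.0004 for Bckdk.

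Leaving out 1 sample at a time gave 379 to 1424 genes and 1 to 3 pathway genes in GCERAΔT against TRACK, 1427 to 2336 genes in GCERAΔT against GCERAΔ, and 3 to 6 of the 10 genes and 4 to 12 pathway genes for the difference. In GCERAΔT against TRACK the values ran from -0.054 to 0.14 for Bcat2, -0.022 to 0.045 for Bckdk, -0.12 to 0.17 for Mccc1 and -0.067 to 0.032 for Hibadh. Atf4 in TRACK against WT ran from -0.11 to 0.052, and Bcat1 in GCERAΔT against GCERAΔ from -0.15 to 0.66.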
